A study of Mus musculus with 8 samples.

Results

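The proximal end of mouse chromosome 14 carries a tandem array of near-identical gene copies, the alpha-takusan cluster. Its probes on the array were taken by position alone, as all probes other than controls that lay on chromosome 14 between 3000000 and 7700000 of genome build mm9, whether named or not. This window of 4.7 Mb held 43 of the 55681 probes, under 32 names, with 27 probes on the plus strand and 16 on the minus strand. Although the rule is one of position, the window was selected on the log2 difference between MS and Control in these same arrays, so that the differences of its probes are given as a description, without a test.

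The tissue was the nucleus accumbens (NAc), part of the ventral striatum, and gene expression there was compared between male C3H/HeN mice exposed to maternal separation (MS) and controls, with 4 mice in each group and 1 array per mouse. MS litters were separated daily from postnatal day (PND) 2 to PND14 while their dams underwent unpredictable stress, whereas control litters stayed undisturbed, and both were weaned on PND21. All mice had done an operant task for palatable food and were food-deprived before sampling, and the NAc was punched from frozen slices. All 8 mice were of the same inbred strain, and their age at sampling is not given in the labels. The labels do not say which mice shared a litter, and p-values measure only the spread between these 8 mice.

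Alpha-takusan genes form a large rodent family made by repeated duplication of a fragment related to Dlg5, a membrane-associated guanylate kinase. Some of their products bind or cluster the postsynaptic scaffold PSD-95, which is encoded by Dlg4 and holds glutamate receptors at the synapse. Many copies are known only as predicted genes, and transcripts of different copies are hard to tell apart.

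The name of the cluster was checked against the probes. Only 2610042L04Rik carries takusan among its synonyms in RefSeq (gene table for GRCm38.p6, taken for names and not for positions). Other probes were therefore joined to 2610042L04Rik where a chain of probes of chromosome 14 shared a run of 20 bases or a transcript accession listed by the array design, a rule that uses no measured value but was set after the values were seen. In this way 19 of the 43 probes were linked to 2610042L04Rik, under 11 names, and 21 were not. The rule compares probes only with each other, so a probe without a link may still read a copy of the family. The 3 remaining probes hold simple repeats shared with probes of other chromosomes and were kept apart. All 43 probes differed in sequence, but 7 of them list accessions of several RefSeq genes and up to 3 genes each, so that a value belongs to a probe and not safely to a gene copy.

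A set of 5 linked probes show why copies are hard to separate. Each is printed from 5′ to 3′ as the array holds it, on the plus strand of mm9, with the 20 bases common to all 5 probes in capitals. They lie at chr14:4139620-4139679 (Gm5796), chr14:5269494-5269553 (Gm8050, whose accession is now that of Gm3317), chr14:4976100-4976159 (Gm3264), chr14:3503725-3503784 (Gm1973, now Gm10413) and chr14:3227182-3227241 (D830030K20Rik).
Gm5796: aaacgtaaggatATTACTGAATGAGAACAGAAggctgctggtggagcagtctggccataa
Gm8050: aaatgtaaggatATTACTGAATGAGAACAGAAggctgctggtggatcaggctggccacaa
Gm3264: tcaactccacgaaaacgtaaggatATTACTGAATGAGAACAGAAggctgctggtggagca
Gm1973: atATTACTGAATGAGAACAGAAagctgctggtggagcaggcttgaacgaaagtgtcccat
D830030K20Rik: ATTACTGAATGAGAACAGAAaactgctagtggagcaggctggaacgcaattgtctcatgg
The probes of Gm5796 and Gm8050 were separated by an edit distance of 4 and shared a run of 41 bases.

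Another set tied 2610042L04Rik itself to its neighbours. Its probe (chr14:4457639-4457698, plus strand), that of Gm2897 (chr14:3076832-3076891) and that of 4930555G01Rik (chr14:5162044-5162103) had 20 bases in common, printed in capitals.
Shared run: TTCAAATATACAATCACTGG
By contrast, the 3 repeat probes are marked by the following 24 bases, at the 3′ end of the first and second and at the 5′ end of the last.
1700110I01Rik repeat: gtgtgtgtgtgtgtgtgtgtgtgt
A_55_P1994294 repeat: ctctctctctctctctctctctct
D830030K20Rik repeat: tcctttcctttcctttcctttcct
Around the transcript starts, only some genes of the window resembled each other. In the RefSeq promoters of GRCm38.p6, which reach from 250 bases before a start to 50 bases after it, Gm2897 and D830030K20Rik shared an unbroken run of 67 bases, and 3 of 32851 promoters in the table held it (0.00913%). By identity over the whole length, Gm10413 and 4930555G01Rik were the most alike at 83.7%, followed by Gm2897 and 2610042L04Rik at 70.3%. The remaining pairs, some of them with the unlinked 1700110I01Rik or Gm3187, lay from 37.7% (Gm3264 and Gm3187) to 62.3%. The longest run, 105 bases, was between Gm10413 and Gm3317. Gm2897 and D830030K20Rik were at 47.0%, but their run began 0 bases into the first and 114 into the second. Their identity thus compares shifted windows and understates how alike they are. The promoter of Gm5796 shared at most 11 bases in a run with that of any other of these genes.
Promoter run: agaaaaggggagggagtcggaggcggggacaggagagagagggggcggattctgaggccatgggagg

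Levels are given on a log2 scale, on which 0 is the 75th percentile of the processed signal of an array and a difference of -1 is a signal lower by 2-fold. Levels of different probes are not compared. Between 28 and 34 of the 43 probes were well above background on each array, and 57.3 to 69.7% of all probes were, with the highest share in both cases in Control replicate 4. A probe was tested if 4 or more of the 8 arrays had it well above background, which left 30 of the 43 probes and 33111 probes in all. The other 13 did not, and had levels from -7.78 to -2.50.

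In the 30 probes, the median difference, MS minus Control, was -0.68, against 0.00 over all probes tested. By sign, 23 of the 30 were lower in MS mice, where 49.4% of all probes were. The 4 values of each group did not overlap in 17 of the 30, all 17 of them lower in MS mice, and over all probes 4.91% did not overlap and were lower and 3.76% did not overlap and were higher. With limma's adjusted p at a threshold of 0.05, 0 of the 30 were called, where 1 of the 33111 probes was (0.00302%), while 18 of the 30 and 4654 of the 33111 had an unadjusted p under 0.05. Since the window was chosen with this contrast in view, these counts describe it and support nothing further.

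The count of called probes changed with the processing, while the sign of the median did not. It was 13 of 30 with normexp background correction, where 1.19% of all probes were called and lower, and 12 of 29 in the deposited values, where 0.979% were. It was 7 of 30 with median scaling (0.272% of all probes) and 11 of 30 with the leading individual number as a random block (1.07%). The labels do not say what that number marks, each number occurs in 1 group only, 3 of the 4 mice of each group share it, and the estimated correlation was -0.11. With a variance trend and robust moderation it was 14 of 30 (1.18%), and among probes above background on every array 10 of 28 (0.343%). With quantile normalization it was again 0 (0.00302%), and without Control replicate 3 it was 2 (0.109%).

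Linked and other probes are described apart. All 15 tested linked probes were lower in MS mice, with a median difference of -0.94 and a range from -1.29 to -0.12, and the groups did not overlap in 12 of them. Of the 12 tested probes that were not linked, 6 were lower and 6 higher, with a median of -0.05 and a range from -0.97 to 0.20, and 5 did not overlap. The 3 repeat probes lay between -0.09 and 0.01, and overlapped in every case. All probes without overlap in these sets were lower in MS mice, and 4.91% of all probes tested were lower with no overlap. No test of the difference between these sets was made.

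The size of the difference depended on the processing. Normexp gave a median difference of -0.46 over the 15 linked probes and the deposited values one of -0.52, with all 15 lower in both. In the same order, the differences became -0.55 and -0.73 for 2610042L04Rik, -0.68 and -0.83 for Gm8050, -0.40 and -0.52 for ENSMUST00000163885, and -0.54 and -0.68 for Gm3099, which was not linked. With normexp the 3 probes of Gm5796 differed by -0.72, -0.62 and -0.89, and the D830030K20Rik probe at chr14:3225337-3225396 by -0.54. ENSMUST00000165619, with -0.91 and -0.93, had the largest difference of the named probes under both settings.

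2610042L04Rik, the copy that RefSeq also calls takusan, had levels of -3.30, -2.65, -2.08 and -2.52 in Control replicates 1 to 4 and of -3.80, -4.13, -3.96 and -3.85 in MS replicates 1 to 4. Every Control value lay above every MS value, with Control replicate 1 nearest to the MS mice. The difference of -1.29 (SE 0.23) corresponds to a signal 2.45-fold higher in controls, the largest difference of the 30 probes in this processing and not with normexp or in the deposited values.

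Gm5796, a protein-coding copy, was read by 3 probes. The probe printed above gave -1.62, -1.40, -1.82 and -1.28 in controls and -2.65, -2.84, -2.64 and -2.46 in MS mice, a difference of -1.12 (SE 0.13). A second probe (chr14:4143532-4143591) differed by -1.01 (SE 0.20). The third (chr14:4144179-4144238) had levels of 2.17, 2.52, 2.08 and 2.55 in controls and of 1.40, 1.13, 1.73 and 1.38 in MS mice, a difference of -0.93 (SE 0.15). Thus the groups were separate on all 3 probes.

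The near-copies of the Gm5796 probe were separate between groups too. Gm8050 (Gm3317) was at -1.53, -1.18, -1.62 and -1.15 in controls and at -2.34, -2.46, -2.60 and -2.59 in MS mice, with a difference of -1.13 (SE 0.12). Gm3264 was at -2.39, -2.06, -2.37 and -1.85 in controls and at -3.13, -3.26, -2.96 and -3.11 in MS mice, with a difference of -0.94 (SE 0.13). For Gm1973 (Gm10413) the difference was -0.88 (SE 0.15), with controls from -3.28 to -2.68 and MS mice from -4.06 to -3.74. Since their sequences overlap so much, they are not 3 independent readings.

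D830030K20Rik, another protein-coding copy, had 3 probes that did not behave alike. The probe at chr14:3225337-3225396 gave -2.23, -2.10, -2.37 and -1.79 in controls and -3.44, -3.23, -2.87 and -2.89 in MS mice, a difference of -0.99 (SE 0.16) with no overlap. The printed probe was dim, and above background on 4 control but only 2 MS arrays. Its difference of -1.05 (SE 0.40) thus rests on MS values not well above background, and became -0.25 with normexp and -0.31 in the deposited table. MS replicate 3, at -3.86, fell within the control range of -4.32 to -3.53. The third, a repeat probe, had 0.01 (SE 0.11).

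Among the remaining linked probes, Gm2897 had levels from -2.06 to -1.46 in controls and from -3.06 to -2.11 in MS mice, a difference of -0.73 (SE 0.21), and MS replicate 3 lay just under the lowest control. Gm3002, annotated by RefSeq as a transcribed pseudogene, differed by -0.72 (SE 0.17) on 1 probe and by -0.61 (SE 0.15) on another, with no overlap on either. ENSMUST00000163885, annotated by the array as a predicted gene on the minus strand (chr14:6071297-6071356), had -2.75, -2.86, -3.37 and -2.73 in controls and -3.76, -4.12, -3.45 and -4.46 in MS mice. Its groups were separate as well, by a narrow gap, and the difference was -1.02 (SE 0.23).

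The family was not uniform. 4930555G01Rik had levels of -2.40, -2.04, -2.26 and -1.89 in controls and of -2.75, -3.07, -2.58 and -0.67 in MS mice, and was named after its values were seen. MS replicates 1 to 3 lay below all controls, but MS replicate 4 lay above them all, which left a difference of -0.12 (SE 0.47). On leaving out MS replicate 1 or MS replicate 2 its sign turned, so that 14 of the 15 linked probes were then lower. ENSMUST00000164544, a minus-strand predicted gene, was at -3.54, -4.37, -4.22 and -3.28 in controls and at -4.61, -4.23, -3.19 and -4.33 in MS mice, a difference of -0.24 (SE 0.34) with full overlap. The other 3 probes of 4930555G01Rik and the second probe of Gm1973 were too dim to be tested.

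Of the probes without a link, 5 had lower values in MS mice with no overlap. Gm3099, a predicted gene (chr14:4103568-4103627), was at -2.36, -2.02, -2.28 and -2.01 in controls and at -3.24, -3.13, -2.80 and -3.38 in MS mice, a difference of -0.97 (SE 0.14). ENSMUST00000165619, also predicted (chr14:4850203-4850262), was at 1.88, 2.22, 1.82 and 2.25 in controls and at 1.02, 0.89, 1.30 and 1.11 in MS mice, a difference of -0.96 (SE 0.13). On both probes every control lay above every MS mouse. Gm3366 differed by -0.80 (SE 0.12), LOC100503728 by -0.65 (SE 0.15) and the unnamed A_55_P2171196 by -0.58 (SE 0.15). Most bases of the Gm3366 probe also stand in a RefSeq promoter of D830030K20Rik, so its lack of a link does not place it outside the family.

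The others without a link stayed near 0. 1700110I01Rik, a long non-coding RNA, had the highest difference, 0.20 (SE 0.09), with controls from -1.50 to -1.25 and MS mice from -1.30 to -1.02, which overlapped. A_55_P2053798 and NAP113134-1, unnamed minus-strand probes that share 48 bases, differed by 0.12 (SE 0.10) and 0.06 (SE 0.08). A_55_P2077635, LOC100036572 and A_55_P2107682 lay between 0.03 and 0.04. Gm3187, a predicted gene at -5.53 to -4.02 in controls and -5.37 to -4.57 in MS mice, was above background on only 2 arrays of each group and differed by -0.13 (SE 0.31). The repeat probes of 1700110I01Rik and A_55_P1994294 differed by -0.08 and -0.09.

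By strand, 19 of 21 tested plus-strand probes were lower in MS mice with a median of -0.88, against 4 of 9 on the minus strand with a median of 0.03. The linked probes outside the window, however, were all on the minus strand.

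The limit of 7700000 did not mark an edge in the values. The nearest probes inside it, A_55_P2171196 and the repeat probe A_55_P1994294 (chr14:7212469-7212528), lay 590804 and 487472 bases away. They differed by -0.58 and -0.09. Just outside, LOC545005 (chr14:7701115-7701174) was at 2.68, 3.18, 2.74 and 3.16 in controls and at 1.85, 1.76, 2.39 and 2.10 in MS mice, a difference of -0.92 (SE 0.17). Gm10406 (chr14:7838959-7839018) was at 1.27, 1.58, 1.18 and 1.66 in controls and at 0.43, 0.33, 0.74 and 0.53 in MS mice, a difference of -0.91 (SE 0.13). Both were separate between groups.

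Outside the window, 10 further probes under 6 names were linked to 2610042L04Rik, all on chromosome 14. Of these, 9 were tested, and all 9 were lower in MS mice with no overlap, with a median of -0.88 and a range from -1.02 to -0.68. Over all probes tested, 4.91% were lower with no overlap. Gm5458, which lies far from the window (its first tested probe at chr14:20413566-20413625), had 3 tested probes with differences of -0.88 (SE 0.13), -0.83 (SE 0.25) and -1.02 (SE 0.16). Gm5797 had 2 with -0.86 and -0.92. Gm3727 was at 1.57, 1.76, 1.47 and 1.95 in controls and at 0.72, 0.36, 0.96 and 0.73 in MS mice, a difference of -0.995 (SE 0.15). Since the link is one of shared bases or accessions, these probes and those of the window are not independent readings.

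Sets of probes around the window gave the background. The adjoining 4.7 Mb, which holds 6 of the linked outside probes, had 32 tested probes with a median difference of -0.04, of which 20 were lower and 8 did not overlap and were lower. Over the rest of chromosome 14 the median was 0.01 in 1252 probes, of which 73 did not overlap and were lower, as 4.91% of all probes tested were. Genes with a Gm number elsewhere, also mostly predicted, had a median of 0.01 in 918 probes. No test against these sets was made.

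By mouse, the linked probes kept the groups apart. The median deviation of the 15 linked probes from their means was 0.25, 0.58, 0.21 and 0.74 in Control replicates 1 to 4 and -0.48, -0.67, -0.29 and -0.37 in MS replicates 1 to 4. Control replicate 4 had the highest control value in 11 of the 15 probes and Control replicate 3 the lowest in 8. In MS mice, replicate 2 had the lowest value in 9 and replicate 3 the highest in 8. Control replicate 4 was also the array with the most probes above background. Without it, the median difference of the linked probes was -0.85.

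All 8 arrays shared 1 slide, with 2 arrays of each group in each row and 1 of each group in each column. The difference in the linked median was -0.99 in row 1 and -0.81 in row 2. By column it was -0.54, -0.69, -0.95 and -1.41 in columns 1 to 4. It was thus negative within every row and column, with 1 array per group in a column. Since the window was chosen on the difference in these same 8 arrays, the values by mouse, row and column are only a description.

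The genes around PSD-95 were mostly higher in MS mice by sign. Of 48 genes of membrane-associated guanylate kinases, their scaffold partners and the receptors and adhesion proteins they hold, 47 were tested, and 0 passed limma's threshold in either direction, while 7 of the 47 had an unadjusted p under 0.05, as 4654 of all 33111 probes did. By sign, 30 were higher in MS mice and 17 lower, with a median of 0.09. The groups did not overlap in 3 of the 47, all higher in MS mice, where 3.76% of all probes were. Dlg4, which encodes PSD-95, was at 2.82, 3.09, 3.28 and 2.84 in controls and at 3.42, 3.16, 3.17 and 3.29 in MS mice. The groups overlapped, and the difference was 0.25 (SE 0.12, limma adjusted p = 0.390). Dlg5, to which the family is related, was at 1.52, 1.44, 1.74 and 1.79 in controls and at 1.46, 1.62, 1.51 and 1.41 in MS mice, a difference of -0.12 (SE 0.10, limma adjusted p = 0.619).

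The largest differences of this list were in scaffold partners. Kalrn, a guanine exchange factor of dendritic spines, differed by 0.37 (SE 0.14, limma adjusted p = 0.292), with 1 of its 8 tested probes of the opposite sign. Homer1, which ties metabotropic receptors to Shank proteins, differed by 0.35 (SE 0.14, limma adjusted p = 0.323), and Dlgap2 by 0.35 (SE 0.12, limma adjusted p = 0.260). Cnksr2 differed by 0.34 (SE 0.10, limma adjusted p = 0.190) and Lrrc7, or densin, by 0.28 (SE 0.08, limma adjusted p = 0.193). Lrrc7 was separate between groups, along with Dlg2 and Dlg3. For Kalrn, Homer1, Dlgap2, Cnksr2 and Lrrc7 alike, Control replicate 4 was the lowest control. Its gap was wide for Homer1, at 2.69 against 3.12 to 3.32 in the other controls. It was narrow for Cnksr2, at 3.78 against 3.83 to 4.06.

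Markers of the tissue and of its neighbours also differed in level between groups. All 21 markers of medium spiny neurons, the main neurons of the NAc, were tested and higher in MS mice by sign. Their median difference was 0.28, and 0 of them passed limma's threshold. Their summed linear level was 940 to 1426 in controls and 1345 to 1604 in MS mice. Control replicate 4 was the lowest control for every marker of this list except Adora2a and Isl1. The low end of the control sum thus falls on that array. Its gap was wide for Penk, at 7.82 against 8.19 to 8.45 in the other controls. It was narrow for Sp9, at -2.31 against -2.28 to -2.02. The same mouse had the highest control value in 11 of the 15 linked probes. Of 12 pallidal markers, 9 were lower with a median of -1.04, and the summed level was 97.1 to 104.7 in controls and 89.7 to 99.8 in MS mice. Of 11 tested hypothalamus and septum markers, 10 were lower with a median of -0.64 and sums of 44.1 to 63.2 against 26.4 to 37.9. Lhx5 was the only marker of any list to pass the threshold, as 1 of all 33111 probes did. Lhx5 was well above background on only 4 arrays, the minimum for a test. Its levels were -4.13 to -2.97 in controls and -7.46 to -6.98 in MS mice. Its difference of -3.53 thus rests on very low MS levels, and its size is imprecise. All 7 cholinergic markers were lower, with a median of -0.13 and sums of 13.0 to 15.9 against 10.3 to 12.7. Of 15 astrocyte markers, 13 were lower with a median of -0.42, and sums of 457 to 511 did not overlap 352 to 380. These sums rest mostly on Aldoc and Sparc, the markers of highest level, which differed by -0.16 and -0.88. The list was not uniform, with 9 of the 15 lower without overlap (4.91% of all probes were), while Aqp4 and Slc1a2 were higher by 0.06 and 0.16.

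The other lists were as follows. Of 10 oligodendrocyte markers 9 were lower (median -0.17), and of 9 microglia markers 9 were (median -0.17). Their sums were 239 to 288 against 210 to 283 and 66.0 to 83.3 against 63.1 to 72.1. Cortical excitatory markers were lower in 3 of 6 (sums 5.10 to 6.42 against 4.91 to 6.82), blood vessel markers in 3 of 8 (15.4 to 16.4 against 15.8 to 18.2) and choroid plexus and ependyma markers in 2 of 6 (5.75 to 6.36 against 5.92 to 6.47). Slc17a7 and Neurod6 of the cortex, Zic2 of the septum and Ttr and Tmem212 of the ependyma were above background on at most 3 arrays and were not tested. The part of these cell type markers in the lower values of the cluster was not tested. In punches of whole tissue, fewer cells of a type cannot be told apart from less RNA per cell.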

How the data were processed

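NAc RNA (40 ng) from 4 Control and 4 MS mice was labelled with Cy3 and hybridised on Agilent arrays. The authors deposited 1 scanner file per array, made with Agilent Feature Extraction 10.10.1.1, with intensity values on a linear scale, and a table of log2 values for 31261 probes. Set against the scanner files, that table followed the log2 mean signal without background subtraction, and the median of each column was 8.01. Its normalization between arrays is not given in the sources used here. The design given by the headers is not the one named in the study's methods, and probe names, sequences and mm9 coordinates are those of the headers.

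Outlier-flagged spots were dropped, and the background-subtracted processed signal was put on the log2 scale and centred on the 75th percentile of its array. Probes that 4 or more of the 8 arrays had well above background were fitted in R 4.3.3 by lmFit and eBayes of limma 3.58.1, and p-values were adjusted by Benjamini-Hochberg over all 33111 probes. The fit was checked on simulated data. The number of arrays limits the precision. Replicates are numbered in accession order. Members and lists were chosen with earlier results of these data known. The rule for named probes took the 12 with the highest mean level, the 8 with the largest difference, 4 against the majority and those at the edge of the window, and from the pathway list 6 genes plus Dlg4 and Dlg5, while other probes were named after their values were seen. Linear levels are 2 to the power of the log2 level. Where several probes read a listed gene, its value is that of the tested probe with the highest mean. Alternatives changed the background correction, the scaling, the filter, the variance model, slide blocks, a random block for the individual number and the mice included.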

Additional observations from a re-analysis of the deposited data

Results flagged for a closer look

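Of 42 groups of 4 values examined (20 named probes and the median of the window, in each group), 1 held a value far from the others, and chance alone marks about 1 group in 20. In the repeat probe A_55_P2067463 of 1700110I01Rik, MS replicate 1 was at 2.43 and the other MS mice were at 2.25 to 2.27, so that the gap to the nearest value was 0.873 of the range in that group, above the critical value of Dixon's test. All 4 controls, at 2.23 to 2.57, spanned this value.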

How the results depend on the processing

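The sign of the median difference over the window was the same under all alternatives, from -0.76 to -0.36. Normexp gave -0.36 and the deposited values -0.47 (the cause was not tested), and the range was -0.75 to -0.55 on leaving out each mouse in turn. Counts of called window probes depended on the processing. With limma's adjusted p under 0.05 they were 13 of 30 with normexp (1.19% of all probes were called and lower), 7 with median scaling (0.272%), 12 of 29 in the deposited values (0.979%), 10 of 28 among probes above background on all 8 arrays (0.343%), 14 with a variance trend and robust moderation (1.18%) and 11 with the number before the point in the individual number as a random block (1.07%), whose estimated correlation was -0.11. They were 0 with quantile normalization, without the filter and with the slide row or column as a block, and 0 to 2 on leaving out each mouse, with 2 without Control replicate 3 (0.109%). Of the PSD-95 list, Cnksr2 alone, 1 of 47, was called with normexp and 0 otherwise, also on leaving out each mouse. The counts lower by sign were 23 to 25, those without overlap 17 to 19 and the named probes lower 14 to 16 on leaving out each mouse. With the looser detection call of the scanner software, 88.1% of window probes were above background on average. Among named probes, 11 values changed sign, all of the repeat probe of D830030K20Rik, LOC100036572 or A_55_P2077635, and lay between -0.11 and 0. By replicate number, no paired analysis was possible because the labels give the groups no shared replicate numbers, although the slide column, with 1 array of each group, is itself a pairing by position and gave 0 calls. Dim probes limit the rest, since 13 were not tested, and the number of copies in C3H/HeN mice was not measured.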

Other observations

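A_55_P1995593, an unnamed minus-strand probe of the window (chr14:3247345-3247404) that was not tested, was above background on 1 array alone. It was at -2.50 in MS replicate 1, at -5.97, -4.93 and -6.17 in the other MS mice and at -7.13 to -5.47 in controls. The second probe of Gm1973 exceeded background in 2 controls and 0 MS mice. It was at -4.98, -3.95, -4.81 and -4.10 in controls and at -6.06, -5.29, -6.88 and -5.45 in MS mice. Since no MS mouse had it well above background, its MS levels are imprecise.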
